A study of Mus musculus with 6 samples.

Results

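The 10 genes described here mark the primed epiblast, and were measured in mouse embryonic stem (ES) cells with and without a small interfering RNA (siRNA) against Lin28a. They are Zic2, Zic5, Pou3f1, Otx2, Sox3, Sox4, Foxd3, Fgf5, Fgf15 and Cdh2. Each was taken from the probe sets (rows) of the value table that the array annotation names with its symbol alone. All 10 were found, among 19946 genes with such a row, and they have 11 rows because Zic5 has 2. Of the 10 genes 7 encode transcription factors, 2 encode secreted fibroblast growth factors (Fgf5 and Fgf15) and 1 encodes an adhesion protein (Cdh2).

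The study hybridised 6 Affymetrix arrays with RNA from the mouse ES cell line A3-1, grown with fetal serum and the cytokine LIF in all groups. The groups were untreated cells, cells given a control siRNA against green fluorescent protein (siGFP) and cells given the Lin28a siRNA (siLin28a), with 2 arrays in each. The labels give 48 h of incubation for the siRNA treatments. The protein LIN28A binds let-7 precursors and keeps them from becoming mature microRNAs. Each siRNA group had 1 siRNA sequence, so an effect of lower Lin28a and an effect of that particular sequence cannot be told apart. The labels do not say whether the replicate arrays came from separate cultures, and if they did not, the p-values reflect technical spread alone. Their number limits the precision. The strands of the Lin28a siRNA are shown because this duplex sets the contrast, with bases 2 to 8 of the second strand, the seed if that strand guides, in capitals. All 19 bases of each strand pair with the other.
siLin28a first strand: gcagaagcgaagauccaaa
siLin28a second strand: uUUGGAUCuucgcuucugc

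Mouse ES cells in serum and LIF resemble the naive epiblast of the embryo before implantation. After implantation the epiblast enters a primed state, in which it loses naive factors, answers to FGF signalling through ERK and becomes ready to form the germ layers. OTX2 and POU3F1 (also called OCT6) act in this transition, in which OTX2 directs the pluripotency factor OCT4 to new enhancers. ZIC2 and ZIC5 are zinc finger proteins, SOX3 and SOX4 are HMG box proteins and FOXD3 is a forkhead protein. Fgf5 is the classical marker of the post-implantation epiblast. Many of these genes are used again in the neural plate, and Foxd3 also acts in the neural crest.

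Values are log2 expression as deposited, in steps of 0.1, and a log2 fold change is a difference of group means on that scale. The arrays had medians between 5.2 and 5.3 over 35556 rows. The ES cell label was checked on 8 marker genes, whose mean level was between 9.90 and 10.6 in the 6 arrays, with Pou5f1 (OCT4) between 11.0 and 11.4 and Sox2 between 11.0 and 11.5. All 8 were lower in siLin28a than in siGFP, as were 11605 of the 23410 rows with a gene. Among the 8 the difference was largest for the siRNA target Lin28a and for Nanog and Zfp42 at −0.70 each. Lin28a was at 9.1 and 9.4 in both control groups and at 7.4 in both siLin28a arrays. Over the 23410 rows with a gene, limma called 0 (0%) at an adjusted p under 0.05 in each of the 3 comparisons, so no gene below is called changed and all are given as values. By limma an unadjusted p under 0.05 was found for 949 rows in siLin28a against siGFP, 1508 in siLin28a against untreated and 825 in siGFP against untreated. Least squares without the shared prior, counted on 23299 of these rows, also called 0 in each comparison. In RNA from whole cultures, fewer cells of a type and less RNA per cell cannot be told apart.

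RefSeq promoter windows (GRCm38.p6) were held for 5 of the 10 genes. They are shown for Zic5 and Sox4, which by each gene's brightest row had the largest differences from siGFP among those 5. By its dimmer row Zic5 had a log2 fold change of 0.20, below Fgf5 at 0.35. A window is also shown for the Otx2 start whose window holds an OTX motif. Each is the 250 bases before the annotated start, 5′ to 3′ on the gene's strand, and capitals mark the only motif match.
Zic5, chr14:122465659-122465908, minus strand: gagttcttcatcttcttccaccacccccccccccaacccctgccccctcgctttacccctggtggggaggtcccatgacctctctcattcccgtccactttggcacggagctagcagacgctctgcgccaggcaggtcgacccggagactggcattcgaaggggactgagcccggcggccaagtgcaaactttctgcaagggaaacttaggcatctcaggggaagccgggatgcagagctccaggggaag
Sox4, chr13:28953700-28953949, minus strand: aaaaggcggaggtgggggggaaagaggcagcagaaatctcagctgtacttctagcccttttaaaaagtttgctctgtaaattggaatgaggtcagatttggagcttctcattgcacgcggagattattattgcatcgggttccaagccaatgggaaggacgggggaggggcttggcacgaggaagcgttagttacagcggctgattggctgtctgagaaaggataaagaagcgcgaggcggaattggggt
Otx2, chr14:48665110-48665359, minus strand: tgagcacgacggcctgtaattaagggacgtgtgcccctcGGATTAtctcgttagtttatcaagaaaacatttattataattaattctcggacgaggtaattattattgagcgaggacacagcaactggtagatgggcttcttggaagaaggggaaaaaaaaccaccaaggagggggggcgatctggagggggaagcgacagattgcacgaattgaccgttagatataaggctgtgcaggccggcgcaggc

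Of 8 member windows (4 of them for different Otx2 starts, some overlapping), 1 held the OTX letters GGATTA on either strand, 211 bases before an Otx2 start, against 6.3% of all 32851 windows. The octamer ATGCAAAT bound by POU factors (1.6% of all windows), the TCF/LEF letters CTTTGAT (3.2%) and the SOX letters CATTGT (10.7%) were in 0 of the 8. The motifs do not overlap one another in these windows, and the matches describe these letters only.

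Zic2, a zinc finger factor of the primed epiblast and neural plate, differed most from siGFP. It was at 7.3 and 7.2 in untreated cells, 7.4 and 6.7 with siGFP, and 8.5 and 8.1 with siLin28a. Both siLin28a arrays lay above all 4 others. Its log2 fold change was 1.25 (moderated SE 0.26 and adjusted p 0.953 by limma, with 2 arrays in each group) against siGFP, or 2.38-fold, and 1.05 (SE 0.26, adjusted p 0.602 by limma) against untreated cells. Arrays of the same replicate number differed by 1.1 and 1.4 from siGFP. Only 6 of the 23410 rows had a larger positive log2 fold change against siGFP. The siGFP arrays themselves were 0.7 apart, and between siGFP and untreated cells the log2 fold change of −0.20 (SE 0.26) was 0.15 without siGFP replicate 2.

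Pou3f1, the POU domain factor OCT6, showed a smaller difference with little spread. It was at 6.6 in both untreated arrays, 6.6 and 6.7 with siGFP, and 7.0 and 7.1 with siLin28a. Again both siLin28a arrays lay above all 4 others. Its log2 fold change was 0.40 (SE 0.12) against siGFP and 0.45 (SE 0.12) against untreated cells, with adjusted p of 0.953 and 0.615 by limma. No relative in the same POU class was higher in both siLin28a arrays than in all others. Over the 6 arrays Pou3f2 was between 5.5 and 5.8 by its brighter row and between 1.1 and 1.9 by a dimmer one. Pou3f4 was between 4.2 and 4.7, and Pou3f3 was at 5.3 in both siLin28a arrays and at 5.4 or 5.5 elsewhere. Zic2 and Pou3f1 were the only members with both siLin28a arrays above every other array, which held for 3.64% of all rows, and 0 members had both below, against 5.03% of all rows.

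**Figure D1:**
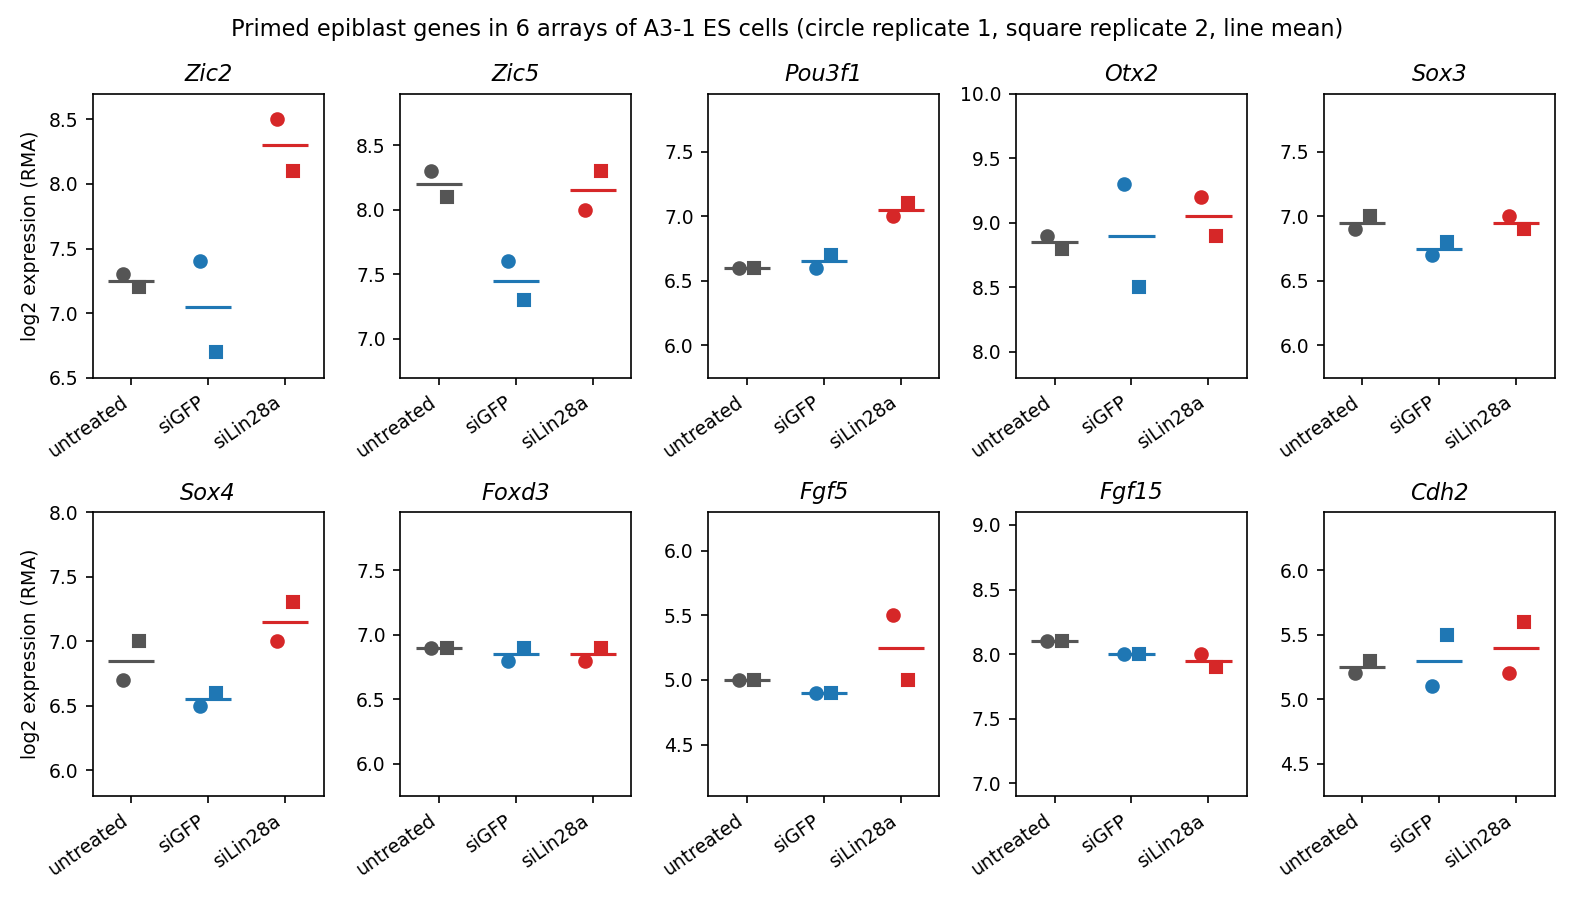
Log2 expression (vertical axis) of each of the 10 genes in the untreated, siGFP and siLin28a arrays; circles are replicate 1, squares replicate 2 and lines group means, and every panel spans the same log2 range. Zic2 and Pou3f1 are above all other arrays in siLin28a, whereas siLin28a and untreated arrays of Sox3 and of the brighter Zic5 row, drawn here, overlap.

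Zic5, a zinc finger factor whose gene neighbours Zic2 with no protein-coding gene between them in RefSeq, was lowest in the siGFP arrays. Its brighter row was at 8.3 and 8.1 in untreated cells, 7.6 and 7.3 with siGFP, and 8.0 and 8.3 with siLin28a. The siLin28a and untreated arrays overlapped, and both siGFP arrays lay below them. This row gave a log2 fold change of 0.70 (SE 0.17) for siLin28a against siGFP, −0.05 (SE 0.17) against untreated cells, and −0.75 (SE 0.17) for siGFP against untreated cells. The last had an adjusted p of 0.961 by limma.

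The dimmer row of Zic5 gave a different picture. It was at 6.8 in both untreated arrays, 6.4 and 6.3 with siGFP, and 6.5 and 6.6 with siLin28a. Here the siLin28a arrays lay between the other groups, with a log2 fold change of 0.20 (SE 0.12) against siGFP, −0.25 (SE 0.12) against untreated cells and −0.45 (SE 0.12) for siGFP against untreated cells. Both rows were lowest with siGFP. Of the other Zic genes, Zic1 was between 3.6 and 3.9 and Zic4 between 4.0 and 4.8 over the 6 arrays. Row numbers on this array mostly follow the genome. Of the 10 rows with 1 symbol numbered next to it, 5 on each side, the dimmer row has 9 from the chromosome of Zic5. The rows of the other 9 members each have between 8 (Otx2) and 10 from their gene's own chromosome. The brighter Zic5 row has 0, with G3bp1 and Gria1 next to it. What the brighter row's probes match was not tested, so the level and the fold change of Zic5 are uncertain.

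**Figure D2:**
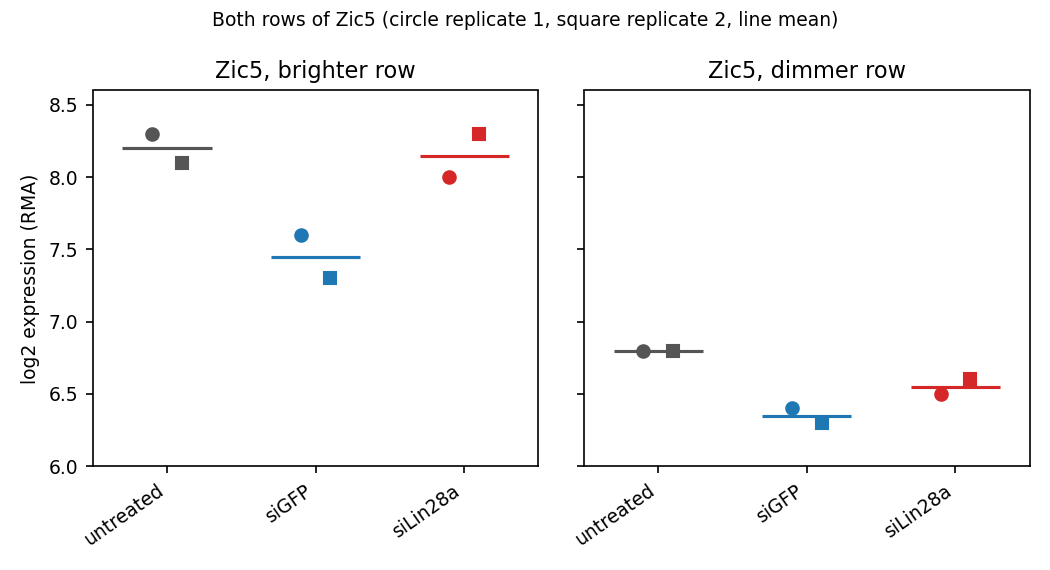
Log2 expression (vertical axis) of both Zic5 rows in the 3 groups; circles are replicate 1, squares replicate 2 and lines group means. In siLin28a the brighter row overlaps the untreated arrays (8.0 and 8.3 against 8.3 and 8.1), and the dimmer row lies below them (6.5 and 6.6 against 6.8).

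Sox4, an HMG box factor of the SoxC group, was at 6.7 and 7.0 in untreated cells, 6.5 and 6.6 with siGFP, and 7.0 and 7.3 with siLin28a. Both siLin28a arrays lay above both siGFP arrays, and the lower of them tied with the higher untreated array at 7.0. Sox4 had a log2 fold change of 0.60 (SE 0.16, adjusted p 0.953 by limma) against siGFP and 0.30 (SE 0.16) against untreated cells. In siGFP against untreated cells it was −0.30 (SE 0.16). The value of 0.30 was 0.15 without siLin28a replicate 2 or untreated replicate 1, and that of −0.30 was −0.45 and −0.15 without untreated replicate 1 and 2. Among its SoxC relatives, Sox11 was at 6.2 in both untreated arrays, 6.1 and 6.3 with siGFP, and 6.6 and 7.1 with siLin28a, a log2 fold change of 0.65 (SE 0.19) against either control. Sox12 was between 6.6 and 6.9.

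Sox3, a SoxB1 factor of the epiblast and neural plate, was at 6.9 and 7.0 in untreated cells, 6.7 and 6.8 with siGFP, and 7.0 and 6.9 with siLin28a. The siLin28a and untreated arrays held the same pair of values. Sox3 had a log2 fold change of 0.20 (SE 0.12) against siGFP and 0.00 (SE 0.12, 95% interval −0.29 to 0.29) against untreated cells. The SoxB1 relative Sox1 was between 6.9 and 7.3 in the 6 arrays.

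Otx2, the homeodomain factor of the exit from naive pluripotency, was at 8.9 and 8.8 in untreated cells, 9.3 and 8.5 with siGFP, and 9.2 and 8.9 with siLin28a. The siGFP arrays spanned all the others. The log2 fold change of 0.15 (SE 0.27, 95% interval −0.50 to 0.80) against siGFP was 0.55 without siGFP replicate 1 and −0.25 without siGFP replicate 2. Against untreated cells it was 0.20 (SE 0.27), and 0.05 and 0.35 without siLin28a replicate 1 and 2. Otx1 was between 4.5 and 5.0, and Crx, the third gene of the family, between 3.7 and 4.2.

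Foxd3, a forkhead factor needed to maintain the epiblast, was between 6.8 and 6.9 in all 6 arrays. Its log2 fold change was 0.00 against siGFP (SE 0.12, 95% interval −0.28 to 0.28) and −0.05 (SE 0.12) against untreated cells. Its relatives Foxd1, Foxd2 and Foxd4 were between 4.2 and 4.8, 5.1 and 5.5, and 4.4 and 4.7.

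The secreted factors differed from each other. Fgf5 was at 5.0 in both untreated arrays, 4.9 in both siGFP arrays, and 5.5 and 5.0 with siLin28a. Its log2 fold change of 0.35 (SE 0.18) against siGFP rests on siLin28a replicate 1, without which it was 0.10. Fgf15, an endocrine FGF that is also made in the embryonic brain, was at 8.1 in both untreated arrays, 8.0 in both siGFP arrays, and 8.0 and 7.9 with siLin28a, a log2 fold change of −0.05 against siGFP (SE 0.11, 95% interval −0.32 to 0.22). The FGF family members Fgf4, Fgf6, Fgf21 and Fgf23 were between 8.5 and 8.8, 3.8 and 4.2, 4.0 and 4.3, and 5.3 and 5.5.

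Cdh2, N-cadherin, which replaces E-cadherin when epiblast cells delaminate, was at 5.2 and 5.3 in untreated cells, 5.1 and 5.5 with siGFP, and 5.2 and 5.6 with siLin28a. The groups overlapped, and replicate 2 was 0.4 above replicate 1 in both siRNA groups. Cdh2 had a log2 fold change of 0.10 (SE 0.20) against siGFP, and −0.10 without siGFP replicate 1 or without siLin28a replicate 2. Cdh1 (E-cadherin) was between 9.7 and 9.9, Cdh3 between 7.4 and 7.9 and Cdh4 between 5.8 and 6.1.

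The count of members that stood apart differed with the control. Against siGFP 8 members were higher, 1 was lower and 1 was equal, with a median log2 fold change of 0.28 where the median over all rows was 0.00 and 38.3% of rows were higher. Both siLin28a arrays lay above both siGFP arrays for 6 members (Zic2, Zic5, Pou3f1, Sox3, Sox4 and Fgf5), against 9.03% of all rows, and below for 0, against 11.8%. An unadjusted p under 0.05 with a higher value was reached by 4 (Zic2, Zic5, Pou3f1 and Sox4), against 1.79% of rows, and with a lower value by 0, against 2.26%. With the dimmer Zic5 row in place of the brighter one, the count without overlap was again 6 and that of an unadjusted p under 0.05 was 3.

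Against untreated cells 6 members were higher, 3 were lower and 1 was equal, with a median of 0.18 beside 41.9% of rows higher. Both siLin28a arrays lay above the untreated pair for 2 members, Zic2 and Pou3f1, against 11.1% of rows, and below for 1, Fgf15, against 12.6%; with the dimmer Zic5 row, Zic5 was below as well, which made 2. The unadjusted p was under 0.05 for 2 members, Zic2 and Pou3f1, both higher, against 2.89% of rows, and lower for 0, against 3.55%.

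In siGFP against untreated cells 3 members were higher and 7 lower, with a median of −0.10 and 44.4% of rows higher. Both siGFP arrays lay below both untreated arrays for 5 members (Zic5, Sox3, Sox4, Fgf5 and Fgf15), against 8.46% of rows, and above for 0, against 9.22%. The unadjusted p was under 0.05 for 1 member, Zic5, in the lower direction, against 1.33% of rows, and higher for 0, against 2.19%. The 3 comparisons share arrays, so their values stand side by side and do not support one another. Of the members above siGFP, Zic2 and Pou3f1 were also above untreated cells. Sox4 and Fgf5 had log2 fold changes of 0.30 and 0.25 against untreated cells, but their lower siLin28a array tied with an untreated value. The siLin28a and untreated values of Sox3 and of the brighter Zic5 row overlapped, and those of the dimmer Zic5 row lay below untreated.

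**Figure D3:**
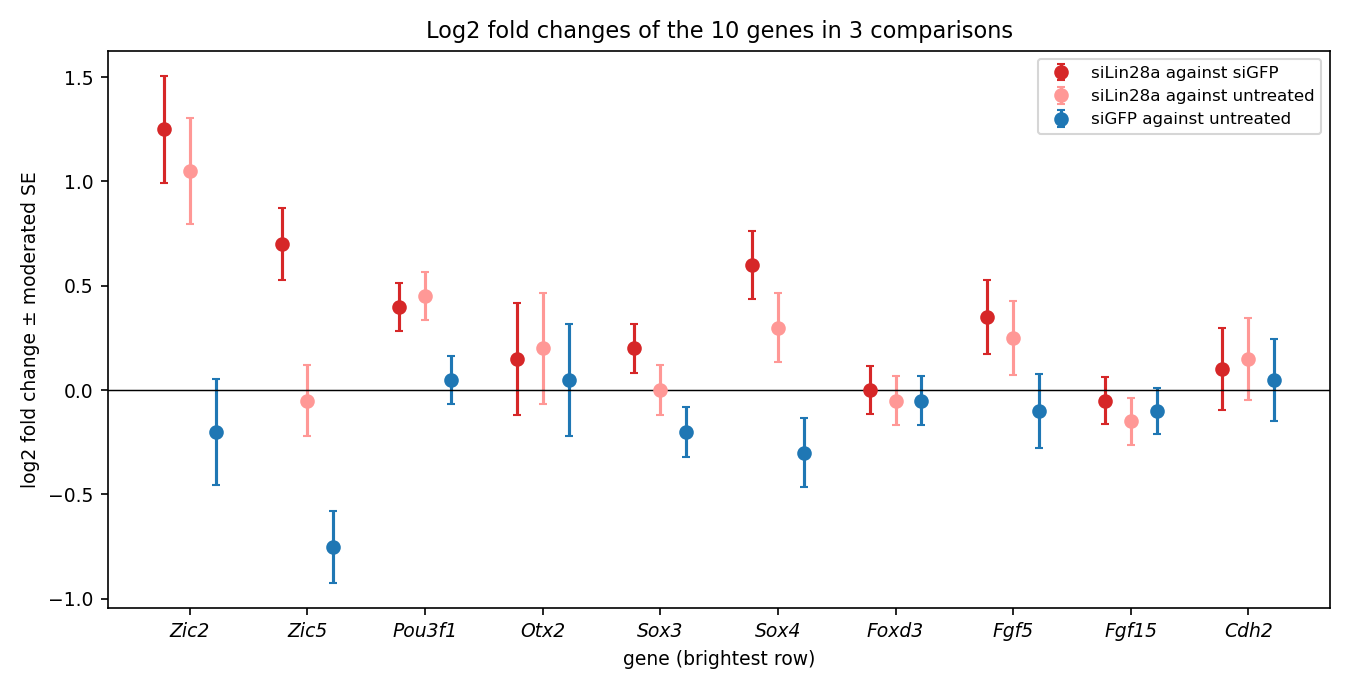
Log2 fold change (vertical axis) of each gene in siLin28a against siGFP (dark red), siLin28a against untreated (light red) and siGFP against untreated (blue); bars are moderated SE from limma. Zic2 and Pou3f1 have similar values against both controls (1.25 and 1.05, 0.40 and 0.45). The brighter Zic5 row, drawn here, has 0.70 against siGFP and −0.05 against untreated cells, and the dimmer row has 0.20 and −0.25.

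**Figure D4:**
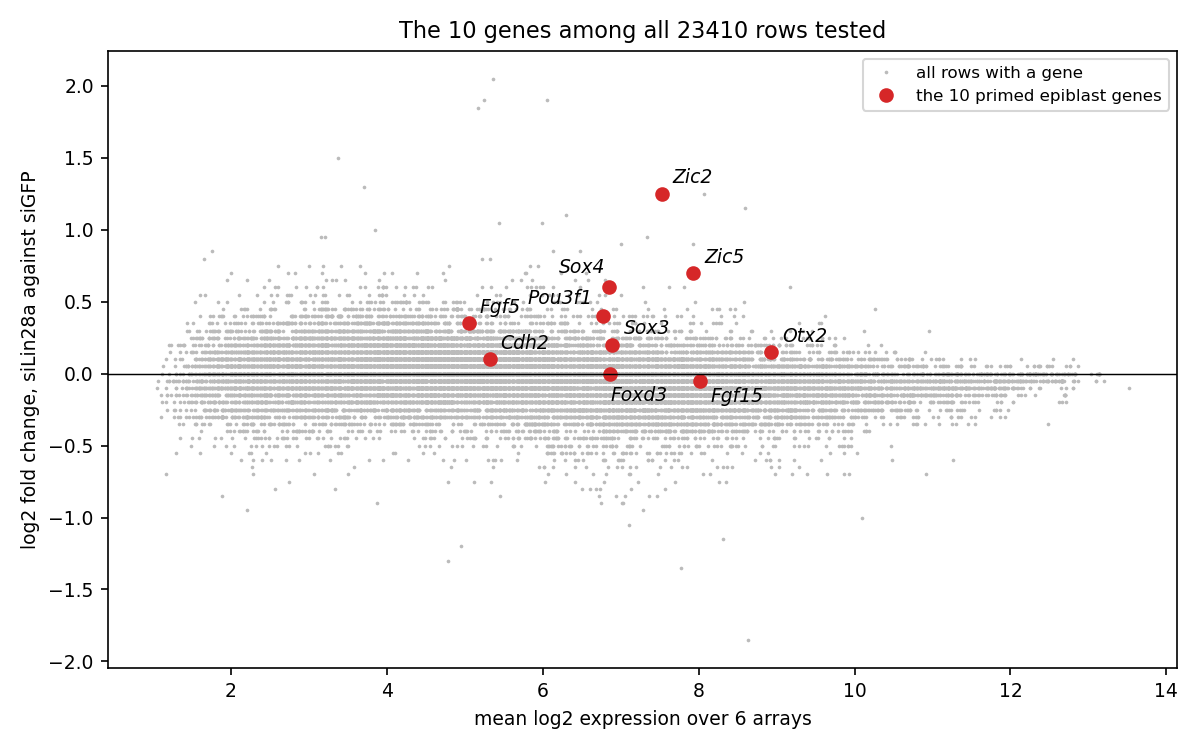
Log2 fold change in siLin28a against siGFP (vertical axis) by mean log2 expression over 6 arrays (horizontal axis) for all 23410 rows tested (grey) and the 10 genes (red). Zic2 at 1.25 is near the upper edge of the cloud, and Foxd3 (0.00), Fgf15 (−0.05), Cdh2 (0.10) and Otx2 (0.15) are in its middle.

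Other genes of the primed state were mixed as well. Of a further 20 genes 18 had a row, of which 11 were higher, 6 lower and 1 equal in siLin28a against siGFP, with a median of 0.05, and 0 passed over all rows. Dnmt3b, a de novo DNA methyltransferase, was at 8.4 and 8.2 with siGFP and 9.5 and 9.4 with siLin28a, a log2 fold change of 1.15 (SE 0.13). Lef1, a transcription factor of Wnt signalling, had 0.95 (SE 0.15), and Sox11 followed at 0.65. An unadjusted p under 0.05 was reached by 4 in the higher direction, against 1.79% of all rows, and by 1 in the lower, against 2.26%. Against untreated cells 8 were higher, 9 lower and 1 equal, with a median of −0.025.

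Naive and core pluripotency genes were mostly lower in siLin28a. Their list shares Nanog, Zfp42, Pou5f1 and Sox2 with the ES cell markers above. Of its 18 measured genes 17 were lower and 1 was higher against siGFP, with a median of −0.32, where 11605 of 23410 rows were lower. Against untreated cells 16 were lower, with a median of −0.35, where 10931 rows were lower. Of the 18, the naive factors Tbx3 at −1.15 (SE 0.13), Prdm14 at −0.80 (SE 0.19) and Klf4 at −0.75 (SE 0.18) had the largest values against siGFP. Over all rows 0 of the 18 passed. Of 21 measured relatives of the 10 genes, 14 were higher, 5 lower and 2 equal against siGFP, with a median of 0.10. They were led by Sox11, already named among the other primed genes, followed by Foxd1 at 0.35 (SE 0.16) and Zic4 at 0.30 (SE 0.20). Of the 22 relatives listed 7 are also in another list, as are 6 of the 20 other primed genes. A dimmer row of Zic4 had 0.20 (SE 0.14). FGF receptors and ERK response genes centred near 0: of 14, 7 were higher, 6 lower and 1 equal against siGFP, with a median of 0.02. Among them Egr1, an immediate early gene, had 0.40 (SE 0.19) and Spred1, an inhibitor of the pathway, −0.15 (SE 0.33). Etv5, an ETS factor induced by ERK, had −0.25 (SE 0.13) by its brighter row and 0.10 (SE 0.26) by a dimmer one, so its direction is uncertain.

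**Figure D5:**
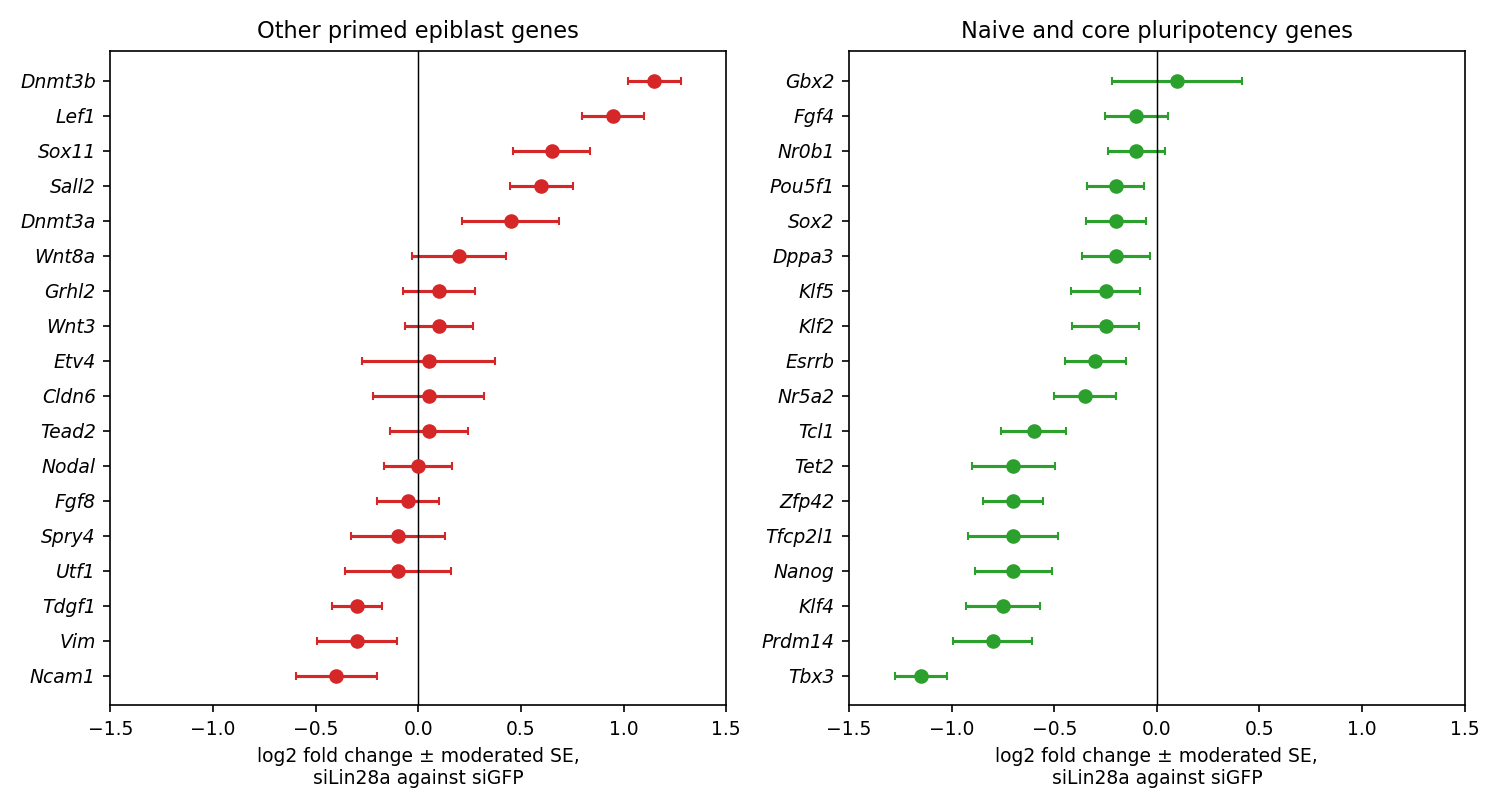
Log2 fold change in siLin28a against siGFP (horizontal axis, bars are moderated SE from limma) of 18 other primed epiblast genes (left) and 18 naive and core pluripotency genes (right). The primed genes run from −0.40 to 1.15 and the naive and core genes from −1.15 to 0.10.

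Markers of cell types that share these genes were compared as well. Of 14 measured neural genes 8 were higher, 4 lower and 2 equal against siGFP, with a median of 0.10. The neuronal tubulin Tubb3 had −0.55 (SE 0.19), the microtubule proteins Map2 and Dcx −0.50 and 0.50, and 11 of the 14 had a mean under 6. The mean level of this list was between 5.16 and 5.17 in the siGFP arrays and between 5.16 and 5.22 in the siLin28a arrays. All 8 neural crest genes had a mean under 6, with Snai2 at 0.25 and Tfap2b at −0.20, and a list mean between 4.55 and 4.62 with siGFP and between 4.64 and 4.70 with siLin28a. Of these 8, 6 were higher, 1 lower and 1 equal against siGFP. All 11 mesoderm and endoderm genes also had a mean under 6, and 5 were higher, 2 lower and 4 equal, with a median of 0.00; the 3 farthest from 0 were Cer1 at 0.30, Gsc at 0.25 and Mesp1 at 0.20. Their list mean was between 4.88 and 4.99 with siGFP and between 4.96 and 5.03 with siLin28a. Of 9 fibroblast genes 7 were higher, 1 lower and 1 equal, led by Acta2 at 0.35, Col3a1 at 0.25 and Dcn at 0.15. A mean under 6 was found for 6 of these 9. Their list mean was between 5.43 and 5.49 with siGFP and between 5.52 and 5.63 with siLin28a. Beside these counts, 38.3% of all rows were higher against siGFP. In the 2 untreated arrays the fibroblast mean was 5.43 and 5.64, which spans the siLin28a values. The neural crest mean, 4.575 and 4.725, does so too. For neural genes it was 5.21 in both, and for mesoderm and endoderm genes 4.91 and 4.95. The part of such cells in the values of the 10 genes was not tested.

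Zic2 was compared with 586 rows that had 1 symbol, a range of at least 1 and a group mean of at least 6. The members and genes with provisional names (Gm with a number, Rik or LOC) were left out. Across the 6 arrays it was followed most closely by Taf9b, a TFIID subunit gene (Pearson r 0.95), and Mael of the piRNA pathway (0.94). Next were the carbonic anhydrase gene Car4 (0.92), Dnmt3b (0.91) and the kinase gene Pim2 (0.90). These r describe 6 arrays that share their groups and their normalization. Among the members r with Zic2 was 0.80 for Pou3f1, 0.79 for Fgf5, 0.65 for Sox4 and 0.64 for Otx2. It was 0.53 for the brighter Zic5 row, 0.45 for Sox3, −0.07 for Cdh2, −0.46 for Fgf15 and −0.49 for Foxd3. Foxd3 had a range of 0.1 in all.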

How the data were processed

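RNA levels of 6 arrays of A3-1 cells were used. Per the submitters' processing notes, the authors made the deposited log2 values with RMA (background correction, quantile normalization between arrays, 1 value per probe set) and Affymetrix Expression Console. No version, library file or genome build was given in the sources used here. That the scale is log2 was read from the values, 0.2 to 13.7 in steps of 0.1, so values tie and differences under 0.1 cannot be seen.

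Rows were named through the array platform's annotation (23410 of 35556 rows with a gene, 21797 with 1 symbol), and 21698 of the latter matched RefSeq by Entrez number. Limma 3.58.1 in R 4.3.3 was fitted, two-sided, on all 23410 rows and 6 arrays in 3 groups without a block, with 3 residual and 3.19 prior degrees of freedom, and adjusted by Benjamini-Hochberg over 23410 rows. The fit was tested on simulated data. With 2 arrays per group no permutation p is given. A gene with several rows is represented by its brightest.

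The members, gene lists and tests were chosen with earlier results of these data known. Named were the 10 genes, Lin28a and relatives of the 10 genes that had a row. The 3 genes of each other list with the largest log2 fold change against siGFP were named too. So were the 5 rows most correlated with Zic2 among the 586 compared. Pou5f1, outside this rule, was added as an ES cell marker. Where several tied for the third place, as in the neural crest list, they were left out. Alternatives were a replicate block, each array left out, 2 further normalizations, a filter on dim rows, 2 other priors, all rows, only the arrays compared, and the mean of a gene's rows. Promoter windows were trimmed to the bases before the start.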

Additional observations from a re-analysis of the deposited data

How the results depend on the processing

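In every alternative 0 members passed the threshold. The count of rows past it, 0 in each comparison, became 1 for siLin28a against siGFP and 7 for siLin28a against untreated (5 higher and 2 lower) with a robust prior, and stayed 0 otherwise. With the replicate number as a block the counts were 0, and the median of the members was 0.28, 0.18 and −0.10 as without it. Differences between replicates correlated across rows at 0.36 between the siRNA groups, 0.15 between untreated and siGFP and −0.04 between untreated and siLin28a, so the siRNA arrays of 1 number deviated partly together, but the labels do not say what a number marks and each group has only 2, so no pairing was assumed. A further quantile normalization turned Fgf15 against siGFP to 0.033 and Zic5 against untreated to 0.042.

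The median of the members was between 0.20 and 0.35 over all alternatives against siGFP, between 0.08 and 0.23 against untreated, and between −0.15 and −0.05 in siGFP against untreated. Leaving out 1 array each gave between 0.075 and 0.175 for the median against untreated. Directions turned without 1 array for these genes. Zic5 against untreated was between −0.20 and 0.10, Cdh2 between −0.05 and 0.35, and against siGFP Cdh2 was between −0.10 and 0.30 and Otx2 between −0.25 and 0.55. In siGFP against untreated Otx2 was between −0.35 and 0.45, Zic2 between −0.55 and 0.15 and Cdh2 between −0.15 and 0.25. Against siGFP, Zic2 was between 0.90 and 1.60, Pou3f1 between 0.35 and 0.45, and Sox4 between 0.45 and 0.75 over all alternatives. The use of the dimmer Zic5 row was added after seeing the data; it lowered Zic5 against siGFP from 0.70 to 0.20. No detection call was used here, so how far dim rows such as Fgf5 and Cdh2 stand above background is not shown.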
